A study of Mus musculus with 24 samples.

Results

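The genes described here are those of myelin and of the oligodendrocyte lineage in the mouse ventral tegmental area (VTA), the midbrain region that holds dopamine neurons of the reward system. The list had 31 names of genes with known roles in the lineage, and was chosen with earlier results of these data known. Counts of its genes set beside all transcripts are therefore descriptions. Of the names, 29 were found as probe sets with a single gene symbol, among 19938 such genes in the table. Every one of the 29 had 1 probe set. They comprise 13 structural proteins of myelin, 6 enzymes, transport proteins and receptors of mature oligodendrocytes, 2 transcription factors of mature cells, 3 transcription factors of the whole lineage (Olig1, Olig2 and Sox10) and 5 genes of oligodendrocyte precursors (Pdgfra, Cspg4, Gpr17, C1ql1 and Neu4). The first 3 groups, 21 genes in all, are called the myelin genes below.

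The study asked how the VTA transcriptome varies over the day. VTA micropunches of 0.5 mm diameter were taken from brain slices of male C57BL/6N wild-type mice, 10 to 12 weeks old, with free access to standard chow. Under 12 h of light and 12 h of darkness, 4 mice were sampled at each of ZT0, ZT4, ZT8, ZT12, ZT16 and ZT20, where ZT0 is lights on, and each of the 24 mice gave 1 array. The labels place the time points 4 h apart, whereas the methods of the paper give 6-h intervals, and the label times are used throughout.

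Oligodendrocytes wrap axons in myelin, a stack of membrane that is rich in the sphingolipids galactosylceramide and sulfatide and is held together by a small set of abundant proteins. They arise from precursor cells that carry the PDGF receptor alpha and the NG2 proteoglycan, that keep dividing in the adult brain, and that pass through a committed stage before they make myelin. Olig1, Olig2 and Sox10 are expressed throughout this lineage, and Myrf switches on the myelin genes in maturing cells. Fibre tracts run next to and through the ventral midbrain, so a VTA punch holds myelinating cells beside neurons.

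All values are log2 array signals after RMA (robust multi-array average, which corrects background, equalizes arrays and combines the probes of a probe set), so a difference of 1 is a doubling of signal. Signals of different probe sets are not comparable as amounts of RNA, and changes over the day are measured within a gene. Mean signals of different transcripts are used only to place them by array signal. Array medians lay between 6.71 and 6.79. One array stood apart before any comparison. ZT0 replicate 4 had a median correlation of 0.970 with the other arrays, whereas the other 23 had 0.988 to 0.993, and 7.57% of the 23410 transcripts (probe sets with a gene in the annotation) were over 0.5 below the mean of the other ZT0 mice in it and 4.94% were over 0.5 above. Results that rest on this mouse are given with and without it. In a punch of tissue, fewer cells of a type and less RNA per cell cannot be told apart, and the precision of each mean is limited by its 4 arrays.

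Of the markers expected in the labelled tissue, all 6 of dopamine neurons were on the array, among them Th, the rate-limiting enzyme of dopamine synthesis, and Slc6a3, the dopamine transporter, with mean log2 signals of 7.76 and 8.48. Of 4 Schwann cell markers, which would come from myelin of peripheral nerve, 2 were measured, Pmp2 with 5.04 and Ncmap with 6.11. Since a probe set's signal does not give an absolute level, these values show neither how many dopamine neurons the punches held nor whether Schwann cell RNA was absent.

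The mean signals of the structural proteins over the 24 mice spanned 7.12 to 10.72. Mbp, the myelin basic protein that compacts the membrane, had a mean of 9.49. Mobp, a second basic protein of compact myelin, had 10.72. Mog and Mag, immunoglobulin-family proteins of the outer and the axon-facing myelin surface, had 8.27 and 8.42. The means were 9.53 for Cnp (a phosphodiesterase of non-compact myelin), 8.13 for Cldn11 (its tight junctions), 9.54 for Mal and 8.33 for Pllp (both proteolipids of lipid-rich membrane), 9.44 for Gjc3 (a connexin), 9.08 for Tspan2 (a tetraspanin) and 8.19 for Cntn2 (an adhesion molecule of the region beside the node of Ranvier). Opalin, a glycoprotein of oligodendrocyte membranes, had 7.12, and Ermn, a cytoskeletal protein of myelinating cells, had 10.04.

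Among the enzymes, Ugt8a, which makes galactosylceramide, had a mean of 9.58. Fa2h, which hydroxylates its fatty acids, had 9.15, and Gal3st1, which sulfates it to sulfatide, had 6.41. Aspa, which cleaves N-acetylaspartate, had 8.37, Trf (transferrin, the iron carrier) 10.70 and the receptor Gpr37 9.16. The transcription factors of mature cells had 8.07 (Myrf) and 7.35 (Nkx6-2), and those of the whole lineage 8.13 (Olig1), 7.72 (Olig2) and 7.92 (Sox10). The precursor genes had 7.49 (Pdgfra, the PDGF receptor alpha), 6.52 (Cspg4, NG2), 6.87 (Gpr17, a receptor of cells committed to differentiate), 7.75 (C1ql1, a secreted C1q-like protein) and 6.73 (Neu4, a sialidase).

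The spread between mice of the same time point was similar in size to that of other transcripts. The SD within time points, pooled over the 6, had a median of 0.11 over the 29 genes and 0.13 over all transcripts. It was lowest for Mbp (0.07) and highest for Aspa (0.34), followed by Opalin (0.18) and Gjc3 (0.17). Without ZT0 replicate 4 it was 0.18 for both Opalin and Aspa, the highest, and 0.12 for Gjc3. The map of all genes in all mice shows both the even rows and the few mice that stood out.

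**Figure D1:**
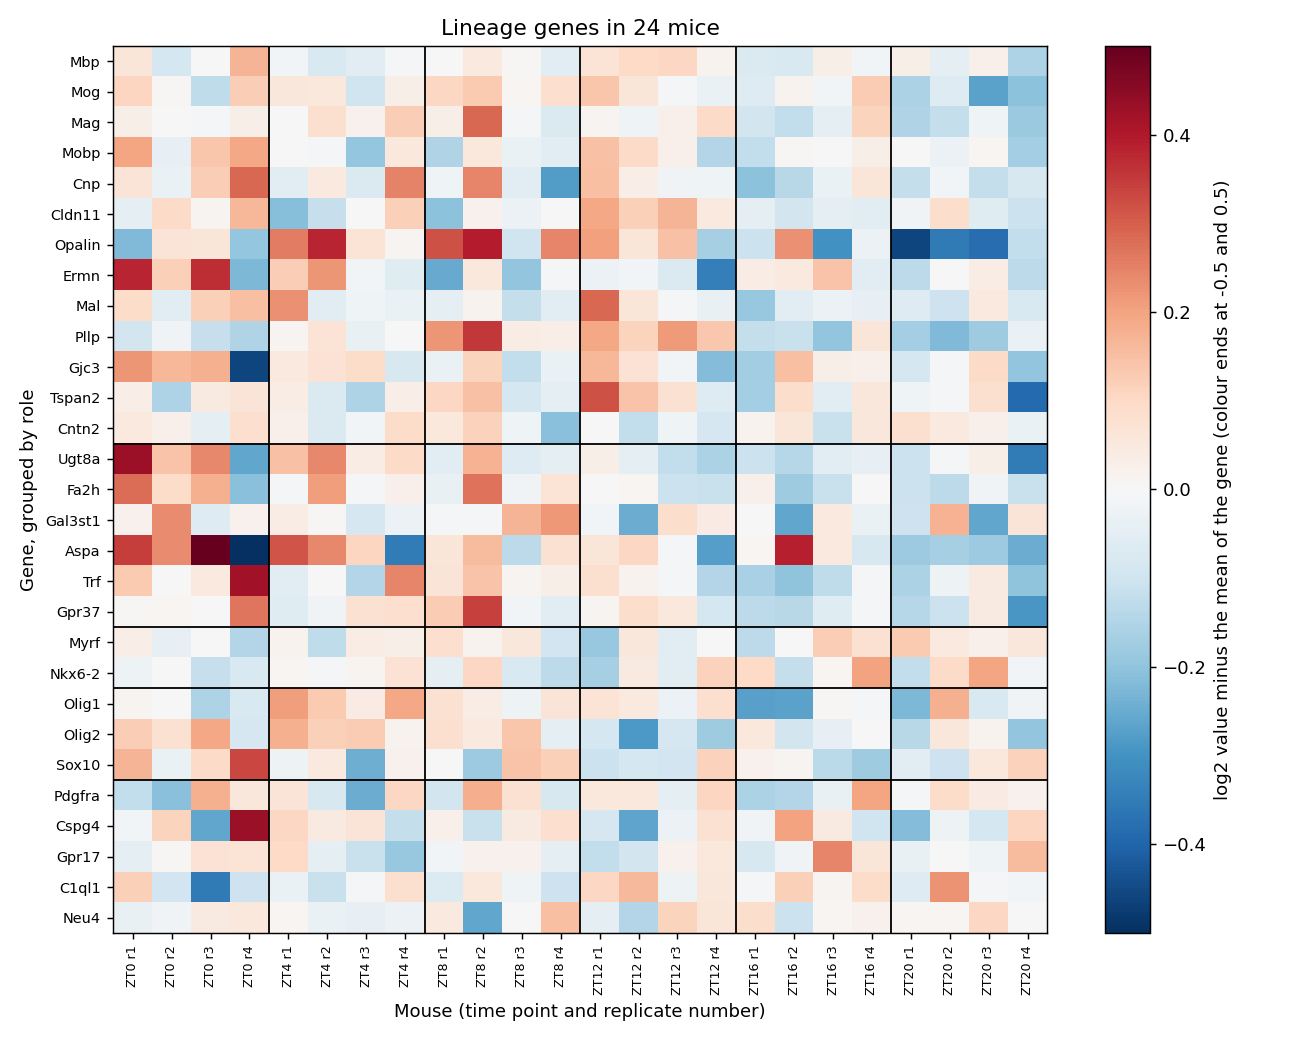
Each row is 1 of the 29 genes, grouped by role, and each column 1 of the 24 mice, ordered by time point; colour gives the log2 value minus the mean of the gene over all mice, and values beyond -0.5 and 0.5 have the end colour. Opalin is low in the ZT20 mice, and ZT0 replicate 4 is low for Aspa and Gjc3 and high for Cspg4 and Trf.

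To ask which genes followed the time of day, a 24-h cosine curve was fitted to every transcript with limma. No lineage gene was called after Benjamini-Hochberg adjustment over all 23410 transcripts, where 7 transcripts were called (0.0299%). At an unadjusted p under 0.05, the cut-off of the paper, 8 of the 29 genes passed (27.6%), against 8.91% of all transcripts. These were the membrane proteins Pllp, Opalin, Mog and Mag, the enzyme Ugt8a, the receptor Gpr37, and the factors Olig1 and Olig2. All 8 fitted curves peaked in the light phase. None of the 5 precursor genes passed. Transcripts with a mean signal of at least 8.27, the median of the lineage genes, had a higher share than transcripts below it, 14.1% of 3012 against 8.13% of 20398. Their fitted peaks also lay in the light phase more often, in 84.1% against 44.7%.

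Pllp, the plasmolipin of myelin membrane, had the smallest p. Log2 values of Pllp in replicates 1 to 4 were 8.24, 8.31, 8.21 and 8.18 at ZT0, 8.34, 8.39, 8.29 and 8.33 at ZT4 and 8.55, 8.68, 8.37 and 8.36 at ZT8. In the dark phase Pllp measured 8.52, 8.44, 8.54 and 8.46 at ZT12, 8.21, 8.21, 8.13 and 8.39 at ZT16 and 8.16, 8.11, 8.15 and 8.29 at ZT20. All ZT12 mice were above all ZT0, ZT4, ZT16 and ZT20 mice, and the ZT8 mice spread from the ZT4 range upward. The fitted curve peaked at ZT 9.0 (SE 0.67 h) with a peak-to-trough difference of 0.34 log2 (SE 0.06), a 1.27-fold range. The limma p was 1.73e-05 and the adjusted p 0.0507. Leaving out single mice moved the adjusted p between 0.0245 and 0.139, with 7 of the 24 omissions below 0.05. Without ZT0 replicate 4 it was 0.0853.

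Opalin had the largest fitted range of the lineage genes. Log2 values of Opalin in replicates 1 to 4 were 6.90, 7.18, 7.18 and 6.93 at ZT0, 7.37, 7.50, 7.19 and 7.13 at ZT4 and 7.44, 7.51, 7.02 and 7.36 at ZT8. In the dark phase Opalin measured 7.32, 7.18, 7.26 and 6.95 at ZT12, 7.01, 7.35, 6.81 and 7.09 at ZT16 and 6.66, 6.76, 6.74 and 6.99 at ZT20. The mean at ZT8 was 7.33 ± 0.22 (SD, n = 4) and that at ZT20 was 6.79 ± 0.14 (SD, n = 4), and no ZT20 mouse reached the lowest ZT8 mouse. ZT16 replicate 2, at 7.35, lay inside the range of the ZT4 and ZT8 mice. The fit gave a 1.40-fold range (0.49 log2, SE 0.10) with its peak at ZT 7.55 (SE 0.75 h), a p of 9.61e-05 and an adjusted p of 0.113 in limma. The adjusted p ran from 0.0252 to 0.240 when single mice were left out, and 2 of the 24 omissions put it under 0.05.

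Because Pllp and Opalin had the smallest p values of the 24-h fit, the sequences before their start sites were read, from RefSeq on GRCm38.p6. The 250 bases upstream of each start are printed 5′ to 3′ on the strand of the gene. They lie at chr8:94696243-94696492 for Pllp and chr19:41077114-41077363 for Opalin, both on the minus strand. Capitals mark a SOX factor motif (ACAAAG or ACAATG on either strand), a motif of the family of Sox10 that was chosen after the values were seen.
Pllp: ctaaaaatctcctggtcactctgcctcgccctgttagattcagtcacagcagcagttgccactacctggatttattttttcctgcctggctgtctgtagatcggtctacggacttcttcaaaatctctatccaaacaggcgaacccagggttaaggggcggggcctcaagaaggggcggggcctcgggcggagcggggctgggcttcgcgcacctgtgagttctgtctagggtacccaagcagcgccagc
Opalin: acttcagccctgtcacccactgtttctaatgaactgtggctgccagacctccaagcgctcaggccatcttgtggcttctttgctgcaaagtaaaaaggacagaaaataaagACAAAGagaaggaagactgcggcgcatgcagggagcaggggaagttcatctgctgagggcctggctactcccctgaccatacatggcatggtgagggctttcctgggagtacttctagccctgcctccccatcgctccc

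Opalin holds 1 such motif, 139 bases before the start, and Pllp none. Promoter windows (250 bases before to 50 after the start) were found for 21 of the 29 genes, 26 windows in all. A SOX motif was found in 10 of the 26 (38.5%), against 28.6% of 32851 promoters. The clock motifs, searched on both strands, were the E-box CACGTG, the D-box TTATGTAA and the ROR element TAGGTCA. None of the 26 windows held one, and the shares of all promoters were 7.15%, 0.938% and 2.61%. A match is a description of letters in this window and not of a bound site.

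The fitted peaks of Pllp and Opalin fell in the second part of the light phase, while Olig2, the factor that specifies the lineage, peaked near its start. Log2 values of Olig2 in replicates 1 to 4 were 7.84, 7.80, 7.92 and 7.64 at ZT0, 7.90, 7.84, 7.85 and 7.74 at ZT4 and 7.80, 7.77, 7.86 and 7.68 at ZT8. In the dark phase Olig2 measured 7.63, 7.44, 7.64 and 7.54 at ZT12, 7.77, 7.63, 7.68 and 7.72 at ZT16 and 7.58, 7.78, 7.74 and 7.53 at ZT20. No ZT12 mouse exceeded 7.64, the value of ZT0 replicate 4, which was the lowest of the ZT0 and ZT4 mice. The fitted range was 0.22 log2 (SE 0.06) with a peak at ZT 2.80 (SE 1.12 h), a limma p of 0.00739 and an adjusted p of 0.411.

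Ugt8a, the galactosylceramide synthase, had its highest means at ZT0 and ZT4. Log2 values of Ugt8a in replicates 1 to 4 were 10.01, 9.73, 9.83 and 9.33 at ZT0, 9.73, 9.83, 9.62 and 9.68 at ZT4 and 9.53, 9.76, 9.52 and 9.54 at ZT8. In the dark phase Ugt8a measured 9.61, 9.54, 9.46 and 9.43 at ZT12, 9.48, 9.44, 9.53 and 9.54 at ZT16 and 9.48, 9.58, 9.61 and 9.23 at ZT20. Apart from ZT0 replicate 4, every ZT0 and ZT4 mouse was above all ZT12 and ZT16 mice. The fitted range was 0.26 log2 (SE 0.08), the peak ZT 3.14 (SE 1.23 h), the p 0.0154 and the adjusted p 0.465 in limma. Without ZT0 replicate 4 the range was 0.31 and the p 0.00136, with an adjusted p of 0.311.

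The other genes under the unadjusted cut-off had ranges of 0.16 to 0.20 log2. Mog had similar means from ZT0 (8.29 ± 0.12, SD, n = 4) to ZT16 (8.28 ± 0.08, SD, n = 4) and a mean of 8.09 ± 0.09 (SD, n = 4) at ZT20. In the dark phase Mog measured 8.40, 8.33, 8.26 and 8.23 at ZT12, 8.20, 8.29, 8.25 and 8.39 at ZT16 and 8.11, 8.20, 8.0 and 8.06 at ZT20. Of the 4 ZT20 mice, 3 were below every mouse of the other time points. Mag was also lowest at ZT20, at 8.30 ± 0.07 against 8.48 ± 0.16 at ZT8 (SD, n = 4), where replicate 2 alone reached 8.71. Gpr37 ran from 9.26 ± 0.18 at ZT8 to 9.03 ± 0.14 at ZT20 (SD, n = 4). Olig1 had its highest mean at ZT4, 8.27 ± 0.08, and its lowest at ZT16, 7.99 ± 0.16 (SD, n = 4), where 2 mice were at 7.86 and 2 at 8.12 and 8.13. The limma p values were 0.0192 for Olig1, 0.0289 for Mog, 0.0307 for Mag and 0.0348 for Gpr37, with adjusted p values of 0.489 to 0.528.

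**Figure D2:**
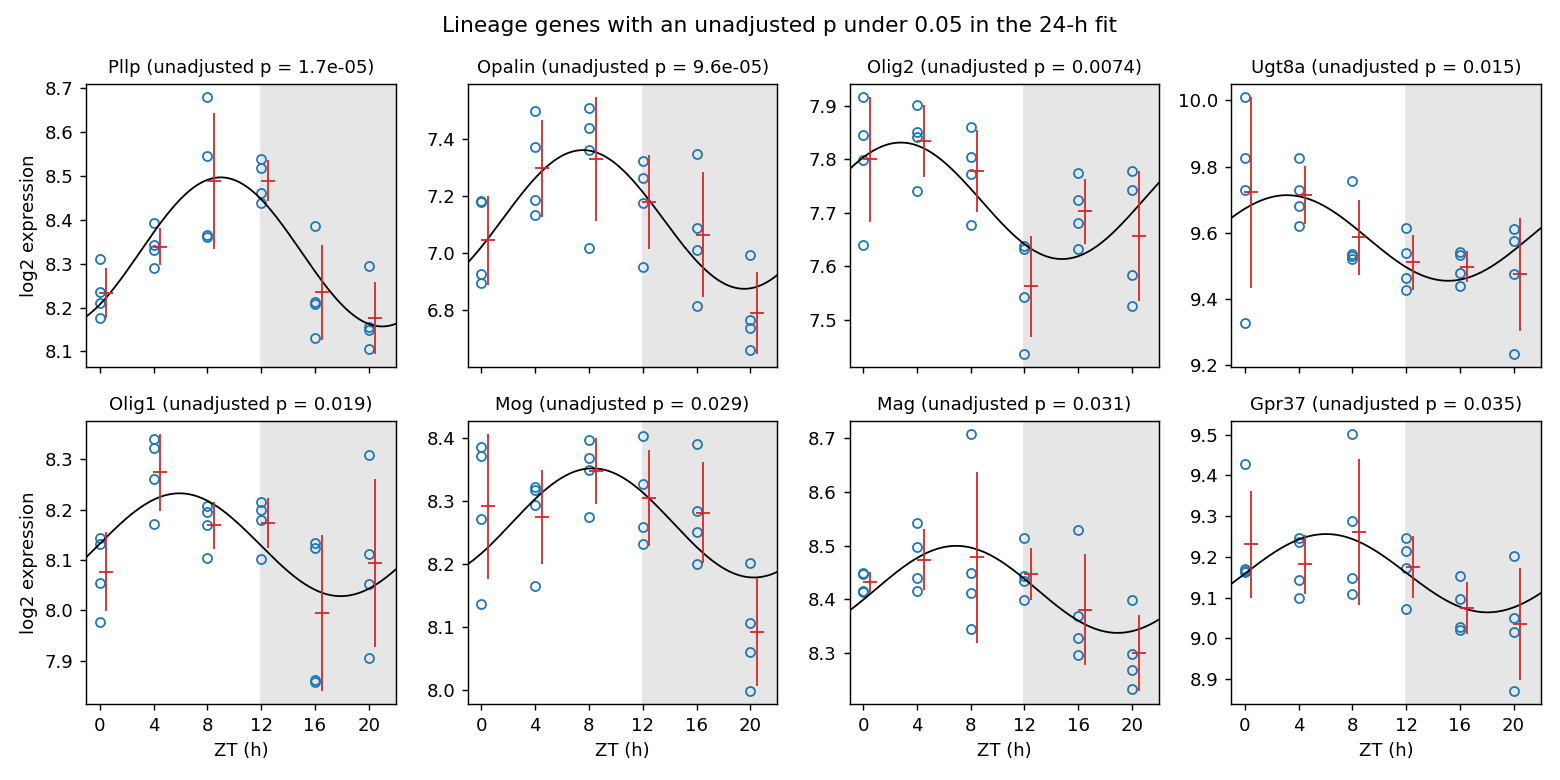
Log2 expression against ZT in hours for the 8 genes with an unadjusted p under 0.05; circles are single mice, red marks the mean and SD of 4 mice (drawn beside them), the line is the fitted 24-h curve and grey is the dark phase. Each panel has its own vertical scale that does not start at 0, and every curve peaks in the light phase, from ZT 2.80 (Olig2) to ZT 9.0 (Pllp).

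Several of the best known myelin genes had flat fits in the deposited values. The fitted range was 0.04 log2 for Mbp, 0.06 for Mobp and 0.04 for Gjc3, with unadjusted p values of 0.737, 0.706 and 0.925 in limma. When ZT0 replicate 4 was left out the ranges were 0.08, 0.03 and 0.11, with p values of 0.350, 0.932 and 0.361. Mobp means ran from 10.67 ± 0.08 at ZT20 to 10.84 ± 0.11 at ZT0 (SD, n = 4). Aspa had means between 8.18 ± 0.04 at ZT20 and 8.46 ± 0.20 at ZT16 (SD, n = 4), and its 4 ZT0 mice had 8.72, 8.60, 8.87 and 7.33. The lowest of these is ZT0 replicate 4, and without it the comparison of the 6 time points gave Aspa a p of 0.00525 in limma, in place of 0.751. Ermn, whose highest mean was 10.20 ± 0.28 at ZT0 (SD, n = 4), had a p of 0.0894, and 0.0143 without ZT0 replicate 4. When the 6 time points were compared as groups in limma, with no curve assumed, Pllp (p of 0.000369), Opalin (0.00115), Olig2 (0.0115), Mog (0.0226) and Olig1 (0.0353) passed the unadjusted cut-off. That is 5 of 29, against 5.1% of all transcripts, and none passed after adjustment. The count was 9 of 29 without ZT0 replicate 4. The share of all transcripts was not counted in that setting, so the rise cannot be read as particular to lineage genes.

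The light phase (ZT0, ZT4 and ZT8), when mice mostly rest, was then set against the dark phase (ZT12, ZT16 and ZT20). At an unadjusted p under 0.05, 6 lineage genes were higher in the light phase, against 5.45% of all transcripts, and 1 was lower, against 5.89%. None passed after adjustment, where 6 transcripts did (0.0256%). The 6 were Opalin (0.21 log2, SE 0.07), Ugt8a (0.18, SE 0.06), Olig2 (0.16, SE 0.04), Trf (0.15, SE 0.05), Fa2h (0.14, SE 0.05) and Gpr37 (0.13, SE 0.05). Their adjusted p values in limma ran from 0.161 (Olig2) to 0.333 (Gpr37). All 12 light-phase values of Olig2 and Gpr37 were above the median of their dark-phase values. The gene that was lower was the precursor gene C1ql1. After a further quantile normalization of the arrays, 4 of the 6 no longer passed: Ugt8a had 0.10 (p of 0.0554), Fa2h 0.09 (0.0528), Gpr37 0.08 (0.0972) and Trf 0.04 (0.407). Without ZT0 replicate 4 all 6 passed. Aspa then also passed, at 0.20 (p of 0.00563) in place of 0.09 (0.460), and so did Ermn, at 0.13 (0.0222) in place of 0.08 (0.189). Counting both directions, 9 lineage genes passed without this mouse in place of 7. Of all 23410 transcripts 3081 did, in place of 2653.

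By role, the 6 enzymes, transport proteins and receptors all had a positive light-minus-dark difference, with a median of 0.13 log2. Of the 13 structural proteins 10 did, with a median of 0.04, and both factors of mature cells had a negative one. Over the 21 myelin genes 16 differences were above 0 with a median of 0.08, and over the 29 genes 20 were (69.0%) with a median of 0.07. Over all transcripts 48.3% were above 0 and the median was -0.003. Of transcripts with a mean signal of at least 8.27, however, 75.7% were above 0 with a median of 0.05, a share close to that of the myelin genes. After a further quantile normalization the roles differed more. Of the 13 structural proteins 5 were then above 0 (median -0.01), and all 6 enzymes, transport proteins and receptors still were (0.09). The share was then 47.1% of transcripts with a mean of at least 8.27.

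In the early light (ZT0 and ZT4) against the early dark (ZT12 and ZT16), 3 genes were higher at an unadjusted p under 0.05, against 4.67% of transcripts, and 1 was lower, against 5.52%. None passed after adjustment, where 8 transcripts did (0.0342%). Olig2 was higher by 0.18 log2 (SE 0.05), Ugt8a by 0.21 (SE 0.07) and Trf by 0.15 (SE 0.06), and C1ql1 differed by -0.13 (SE 0.06). Of the 8 early-light mice, 7 were above all 8 early-dark mice for Ugt8a and 6 for Olig2. Trf lost its call without ZT0 replicate 4 (0.10, p of 0.0852 in limma) and after the further quantile normalization (0.02, p of 0.662). Ermn (0.21, p of 0.00279), Fa2h (0.18, 0.00348) and Aspa (0.19, 0.0335) passed without that mouse. Counting both directions, 6 lineage genes then passed in place of 4, and 2600 of all 23410 transcripts in place of 2386. Ugt8a had 0.28 without ZT0 replicate 4 and 0.13 (p of 0.0459) after the further normalization. Mbp (-0.10, p of 0.0212 in limma) and Tspan2 (-0.12, 0.0440) were lower in the early light after the further normalization.

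Of the precursor genes, C1ql1 had the smallest p in every comparison. Log2 values of C1ql1 in replicates 1 to 4 were 7.87, 7.66, 7.40 and 7.65 at ZT0, 7.72, 7.64, 7.74 and 7.83 at ZT4 and 7.68, 7.80, 7.73 and 7.65 at ZT8. In the dark phase C1ql1 measured 7.85, 7.91, 7.73 and 7.81 at ZT12, 7.74, 7.87, 7.77 and 7.84 at ZT16 and 7.68, 7.98, 7.74 and 7.74 at ZT20. C1ql1 was lower in the light phase by 0.11 log2 (SE 0.05), with a limma p of 0.0331 and an adjusted p of 0.400, and 5 of the 8 early-light mice were below all early-dark mice. Pdgfra means stayed between 7.45 ± 0.16 at ZT4 and 7.53 ± 0.06 at ZT12 (SD, n = 4). Cspg4 was highest on average at ZT0, with 6.58 ± 0.29 (SD, n = 4), where the mice had 6.50, 6.63, 6.25 and 6.95, and the highest of these is ZT0 replicate 4. Gpr17 means ran from 6.81 ± 0.12 at ZT4 to 6.92 ± 0.14 at ZT16, and Neu4 means from 6.71 ± 0.02 at ZT4 to 6.76 ± 0.05 at ZT20 (SD, n = 4). The fitted ranges of the 5 genes were 0.04 to 0.15 log2, and 1 of the 5 light-minus-dark differences, that of Cspg4, was above 0 (median -0.03).

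To set both ends of the lineage side by side, each gene was centred on its mean over all mice and the values were averaged per mouse over the 21 myelin genes and over the 5 precursor genes. Since the genes were chosen with results of these data known, these averages are a description without a test. The groups also differ in signal, with means of 6.52 to 7.75 for the precursor genes and a median of 9.08 for the myelin genes. Of transcripts with a mean of at least 8.27, 75.7% were higher in the light phase, against 44.2% of those below it. The part of signal level in the averages was not tested. The myelin average was 0.04 ± 0.06 at ZT0, 0.03 ± 0.03 at ZT4, 0.03 ± 0.09 at ZT8, 0.02 ± 0.06 at ZT12, -0.03 ± 0.04 at ZT16 and -0.08 ± 0.05 at ZT20 (SD, n = 4). The precursor average stayed between -0.02 ± 0.05 at ZT4 and 0.02 ± 0.04 at ZT16 (SD, n = 4). The difference between them was 0.05 ± 0.13 at ZT0, 0.05 ± 0.04 at ZT4, 0.03 ± 0.10 at ZT8, 0.02 ± 0.11 at ZT12, -0.05 ± 0.03 at ZT16 and -0.09 ± 0.07 at ZT20 (SD, n = 4). All 8 mice at ZT16 and ZT20 had a difference below 0, and so did ZT0 replicate 4 (-0.14), ZT12 replicate 4 (-0.14), 2 mice at ZT8 and 1 at ZT4. Without ZT0 replicate 4 the ZT0 difference was 0.11. Single mice also set the sign at ZT8 (-0.008 without replicate 2) and ZT12 (-0.008 without replicate 1).

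**Figure D3:**
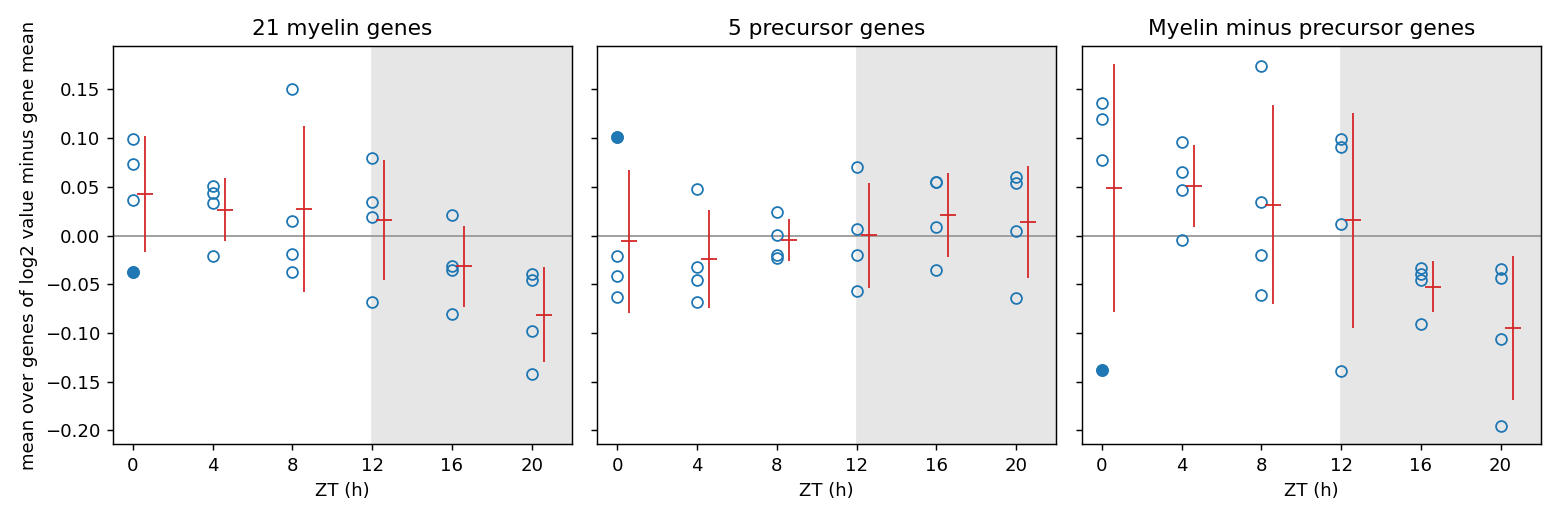
Mean over genes of the log2 value minus the gene mean, per mouse, against ZT in hours, for 21 myelin genes, 5 precursor genes and the difference between them; circles are mice, the filled circle is ZT0 replicate 4, red marks the mean and SD of 4 mice and grey is the dark phase. All mice at ZT16 and ZT20 lie below 0 in the panel of the difference.

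The comparison was repeated after a further quantile normalization of the whole table, which gives all arrays the same distribution of values. At an unadjusted p under 0.05, 3 of 29 genes passed the 24-h fit, Pllp (p of 6.7e-05), Opalin (0.000138) and Olig2 (0.00624) in limma, against 8.09% of all transcripts. Their ranges of 0.31, 0.48 and 0.21 log2 were close to those from the deposited values. Ugt8a (p of 0.110), Olig1 (0.0585), Mog (0.0749), Mag (0.0930) and Gpr37 (0.146) no longer passed. The light-minus-dark median of the 21 myelin genes, however, was 0.005 with 11 above 0, in place of 0.08 with 16 above 0, while the precursor median was -0.03 in both. Mobp went from 0.03 to -0.08 (SE 0.04, limma p of 0.0320) and Mbp from -0.003 to -0.08 (SE 0.03, p of 0.0278), whereas Opalin was 0.22, Olig2 0.16 and C1ql1 -0.11. In the 24-h fit Mbp had a range of 0.12 log2 in place of 0.04 (p of 0.0541 in limma, peak ZT 14.51). Mobp had 0.13 in place of 0.06 (p of 0.0502, peak ZT 16.80). The myelin-minus-precursor difference was 0.01 at ZT0, 0.03 at ZT4, 0.03 at ZT8, 0.01 at ZT12, -0.02 at ZT16 and -0.06 at ZT20.

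The upper end of the signal distribution differed between arrays in the same direction as the myelin average. The 90th percentile over transcripts was 8.57 ± 0.09 at ZT0, 8.57 ± 0.03 at ZT4, 8.56 ± 0.06 at ZT8 and 8.57 ± 0.05 at ZT12, and 8.53 ± 0.03 at ZT16 and 8.51 ± 0.07 at ZT20 (SD, n = 4). After the further normalization, transcripts with a mean of at least 8.27 had a light-minus-dark median of -0.005 and 8.60% passed the 24-h fit, close to the 8.01% of transcripts below it. The ZT16 and ZT20 means differed from the earlier ones by about the SD between mice. The part of this spread between arrays in the myelin average was not tested.

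**Figure D4:**
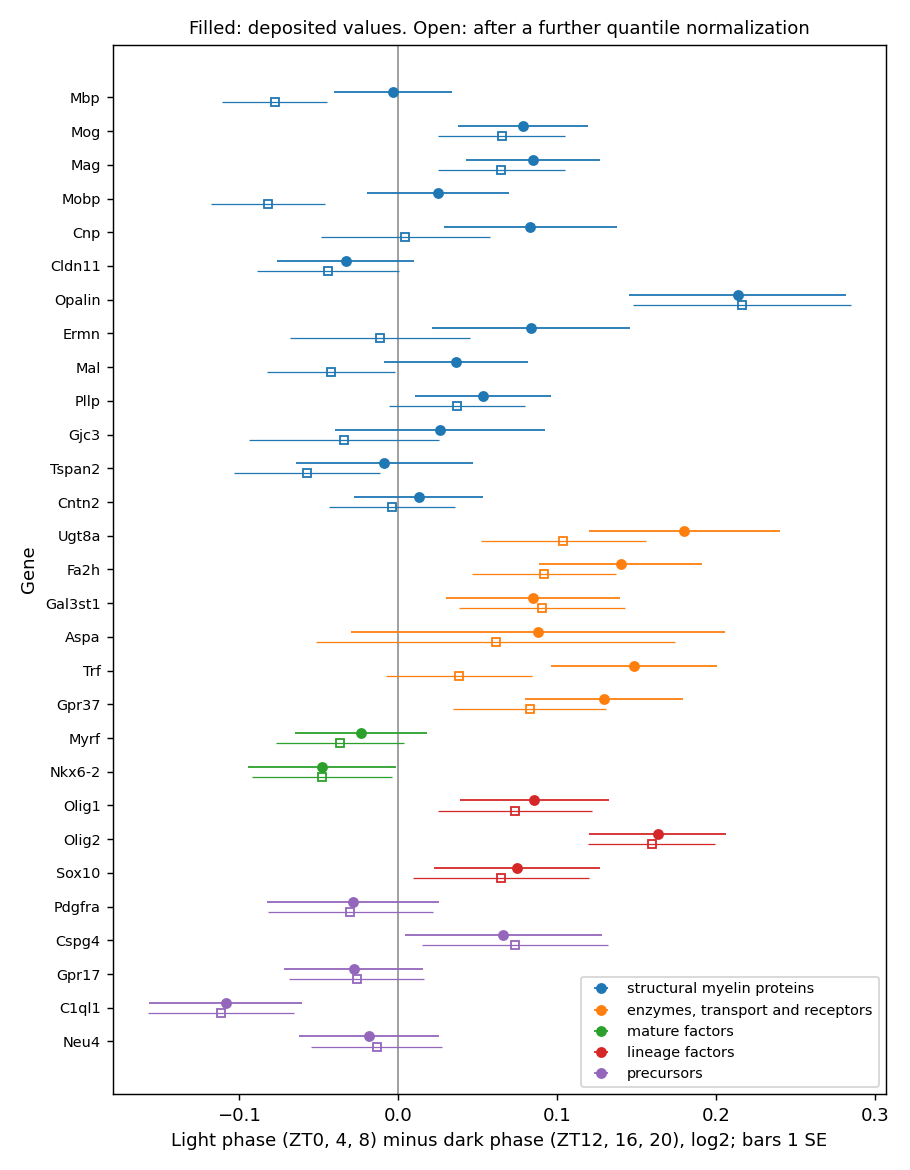
Mean of ZT0, ZT4 and ZT8 minus mean of ZT12, ZT16 and ZT20 in log2 units for the 29 genes, coloured by role, with bars of 1 standard error from limma; filled circles are deposited values and open squares are values after a further quantile normalization. Opalin, Olig2 and C1ql1 keep their distance from 0, while Mbp, Mobp, Cnp, Ermn, Mal and Trf move toward lower values.

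ZT0 replicate 4 did not lower or raise all lineage genes alike. Compared with the other 3 mice of ZT0, 8 of the 29 genes were below all of them, 12 above all of them and 9 within their range. Aspa was 1.40 below their mean, Gjc3 0.65, Ugt8a 0.53, Ermn 0.51 and Fa2h 0.39, while Cspg4 was 0.49 above it, Trf 0.36, Gpr37 0.26, Sox10 0.26 and Cnp 0.24. Without this mouse 11 of 29 genes passed the unadjusted cut-off of the 24-h fit, against 9.09% of transcripts, and none after adjustment. Trf (p of 0.0476), Fa2h (0.0146) and Ermn (0.0143) were then under 0.05 in limma beside the former 8.

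Other genes of the lineage, taken from lists of known markers, were counted in the same way. Of 27 measured further genes of mature oligodendrocytes, 5 passed the unadjusted cut-off of the 24-h fit (18.5%, against 8.91% of all transcripts). A positive light-minus-dark difference was found for 19 of the 27 (70.4%, against 48.3% of all transcripts). The share was 75.7% of transcripts with a mean of at least 8.27 and 44.2% of those below it. The median signal of the 27 genes was 7.84. Fitted peaks lay in the light phase for 14 of the 27 (51.9%, against 49.8% of all transcripts). The smallest p values there were those of Car2 (carbonic anhydrase of oligodendrocytes, range 0.29 log2, peak ZT 3.56, p of 0.00138), Qdpr (a pteridine reductase, 0.24, ZT 5.18, 0.0111) and Klk6 (a protease, 0.19, ZT 2.82, 0.0170), with adjusted p values in limma of 0.316 to 0.473. The other genes that passed, Anln (an actin-binding protein, peak ZT 21.14, p of 0.0217) and Cryab (a small heat shock protein, peak ZT 22.86, p of 0.0371), peaked in the dark phase. Of 9 further precursor genes 2 passed (22.2%, against 8.91%), Lhfpl3 (0.27 log2, ZT 12.26, p of 0.00177) and Vcan (versican, 0.27, ZT 15.26, p of 0.00523). The peak of Lhfpl3 lay within its standard error (0.96 h) of lights off. Of the 9, 5 had a fitted peak in the light phase and 5 a positive light-minus-dark difference. Cspg5, the next in order, had a p of 0.0812.

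None of the 9 genes of committed and newly formed oligodendrocytes passed the 24-h fit at an unadjusted p under 0.05 in limma, and the smallest p values were those of Mycl (0.0755), Fyn (0.114) and Sox17 (0.146). Of 9 measured genes of lipid synthesis for myelin, 1 passed (11.1%, near the 8.91% of all transcripts), the squalene epoxidase Sqle (range 0.17 log2, peak ZT 6.10, p of 0.0274). Hmgcs1 had 0.0755 and Sptlc2 0.159. All 9 had a fitted peak in the light phase, against 49.8% of all transcripts and 84.1% of those with a mean of at least 8.27, and their median light-minus-dark difference was 0.04. After the further quantile normalization none of the 9 passed and the median was 0.008. All 9 fitted peaks still lay in the light phase, against 55.2% of transcripts with a mean of at least 8.27 and 50.2% of those below it. Sptlc1 (mean of 7.03), Elovl1 (7.56) and Sqle (8.15) were below that level. Standard errors of the 9 peak times ran from 1.34 h (Sqle) to 5.22 h (Fdft1) in the deposited values, so several peaks were poorly determined.

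Markers of other cells were measured beside the lineage genes. The average of the 5 neuron markers, centred in the same way, went from 0.05 ± 0.05 at ZT8 to -0.07 ± 0.10 at ZT20 (SD, n = 4). This was the direction of the myelin average, and 1 of the 5 (Stmn2) passed the 24-h fit. Their median signal was 10.43, and 75.7% of transcripts with a mean of at least 8.27 were higher in the light phase. After the further quantile normalization 2 of the 5 light-minus-dark differences were above 0 (median -0.01), in place of 5 (0.05). The 6 dopamine neuron markers went opposite to the myelin average, from -0.08 ± 0.16 at ZT0 to 0.09 ± 0.13 at ZT20 (SD, n = 4), and none of them passed. The 6 astrocyte markers stayed between -0.01 and 0.02. The average of the 5 microglia markers went from 0.04 ± 0.12 at ZT0 to -0.04 ± 0.06 at ZT20 (SD, n = 4). None of the 5 passed the 24-h fit, while Cx3cr1 (0.14 log2, p of 0.0395) and Aif1 (0.14, p of 0.0400) were higher in the early light than in the early dark at an unadjusted p under 0.05 in limma. The 4 endothelial markers ran from 0.03 ± 0.05 at ZT4 to -0.05 ± 0.05 at ZT16 (SD, n = 4). Among them Cldn5, a tight junction protein of brain vessels, passed the 24-h fit (range 0.32 log2, p of 0.000675, adjusted p of 0.251) and was higher in the early light by 0.22 log2 (p of 0.00145). Pdgfra is also made by leptomeningeal fibroblasts and Cspg4 by pericytes, and none of the 4 markers of either cell type passed the 24-h fit. The light-minus-dark difference was above 0 for 4 of 4 pericyte and 3 of 4 leptomeningeal markers, against 48.3% of all transcripts. The pericyte marker Kcnj8 was higher in the light phase by 0.11 log2 (unadjusted p of 0.0469, adjusted p of 0.434 in limma). The pericyte average lay between 0.06 ± 0.04 at ZT8 and -0.05 ± 0.05 at ZT12 (SD, n = 4), and the leptomeningeal average between 0.03 ± 0.03 at ZT4 and -0.05 ± 0.08 at ZT0. The part of other cells in the differences above was not tested.

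Whether lineage genes varied together from mouse to mouse was examined for 8 pairs over the 24 mice, with two-sided permutation p values adjusted over the 8. Mog and Mag had the highest correlation, with a Pearson r of 0.54 (permutation p = 0.00653, adjusted p = 0.0522) and a Spearman rho of 0.58 (permutation p = 0.00343, adjusted p = 0.0274). Within time points, as deviations from their means, r was 0.23 (adjusted permutation p = 0.477), and without the 2 most extreme mice, both at ZT20, it was 0.51 (adjusted permutation p = 0.112). Mog and Mobp had r = 0.40 and rho = 0.46 (permutation p = 0.0524 and 0.0260, adjusted p = 0.123 and 0.104) and, within time points, r = 0.52 (adjusted permutation p = 0.0757) and rho = 0.61 (adjusted permutation p = 0.0166). Without the 2 most extreme mice r was 0.38. After the further quantile normalization it was 0.15 for Mog with Mobp and 0.47 for Mog with Mag. The p values within time points came from shuffling all 24 deviations across time points. Deviations from group means are not independent, so these p values can be too small.

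The r of Mog with Mobp had a size similar to that with the astrocyte gene Aqp4 (r = 0.39, rho = 0.34) and the neuronal gene Snap25 (r = 0.39, rho = 0.37). Within time points r was 0.26 for Aqp4 and -0.06 for Snap25. Their permutation p values were 0.0614 and 0.0580 for r and 0.101 and 0.0795 for rho, with adjusted p values of 0.123, 0.123, 0.161 and 0.159. With the precursor genes the r of Mog was 0.08 (Pdgfra) and 0.20 (Cspg4), and with Th it was -0.03, with adjusted permutation p values of 0.791, 0.455 and 0.884. The corresponding rho were 0.17, 0.01 and 0.05, with adjusted permutation p values of 0.556, 0.956 and 0.951. Pdgfra and Cspg4, both of precursors, had r = -0.36 and rho = -0.42 (permutation p = 0.0835 and 0.0414, adjusted p = 0.134 and 0.110). Without the 2 most extreme mice their r was -0.32, and without ZT0 replicate 4 alone it was -0.53. The r of Mog with Cspg4 was 0.08 without ZT0 replicate 4.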

How the data were processed

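VTA mRNA of 24 mice was measured on Affymetrix arrays. The authors deposited log2 values made with RMA in R 2.13.1, per the submitters' processing notes, for 35556 probe sets, of which 23410 carry a gene and were tested as transcripts. RMA equalizes arrays at the probe level, before probes are combined. No column lacked a sample (0 unmapped). Names Enpp2 and Qdpr2 were not matched and are not analysed here.

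Fits were made in R 4.3.3 with limma 3.58.1 and moderated tests, with Benjamini-Hochberg adjustment over all transcripts, and plots with matplotlib 3.10.9. The paper used CircWave, which was replaced by a limma fit of the cosine and sine of ZT (period 24 h). Contrasts came from a fit of the 6 time points as groups. Pair correlations used 100000 permutations. The fits were tested on simulated data. The mice were separate at each time point, so p values measure the spread between mice.

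The members and lists were chosen with earlier results of these data known. Values per time point are given for the precursor genes, the lineage factors, and the members with the smallest p, highest mean or largest SD; 3 genes with the smallest p are named from each further lineage list. Anln, Cryab and the genes named from marker lists were chosen after their values were seen. Alternatives were another normalization, centring, a replicate block, all probe sets, a level filter, array weights, other tests, a 12-h term, linear values, and leaving out arrays and time points. The clock motifs came first and the SOX motif was added after values were seen.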

Additional observations from a re-analysis of the deposited data

Results flagged for a closer look

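In 5 of the 114 groups of 4 mice examined (19 genes at 6 time points), 1 mouse lay far from the other 3 by Dixon's test, and chance flags about 1 in 20 groups. Gjc3 was at 8.979 in ZT0 replicate 4, where the others had 9.605 to 9.657, and Gpr37 was at 9.429 in the same mouse, where the others had 9.162 to 9.170. Ugt8a was at 9.757 in ZT8 replicate 2, against 9.522 to 9.536. Sox10 was at 8.037 in ZT12 replicate 4, against 7.815 to 7.832. Neu4 was at 6.834 in ZT20 replicate 3, against 6.730 to 6.741. Thus 2 of the 5 were in ZT0 replicate 4, the array that stood apart over all transcripts.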

How the results depend on the processing

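No result changed sign among those called. The count of 8 lineage genes at an unadjusted p under 0.05 in the 24-h fit became 3 after a further quantile normalization, 4 with 24-h and 12-h terms together, and 5 when the ZT4 or the ZT12 mice were left out. It ran from 5 (without ZT8 replicate 2) to 11 (without ZT0 replicate 4) when single mice were left out. The count of 0 after adjustment became 1 (Pllp) among transcripts above the median level (adjusted p = 0.0161), with array weights (0.0207), with a robust and trended eBayes step (0.0434) and with an unmoderated F-test (0.0380), all fits across all transcripts tested, and ran from 0 to 2 without single mice (2 without ZT8 replicate 3). The 5 genes that differed among time points ran from 4 to 9 (without ZT0 replicate 4). The 4 of the early light against the early dark ran from 2 (without ZT16 replicate 2) to 6 (without ZT0 replicate 4). Of all transcripts, 8.09% passed the 24-h fit after the further quantile normalization and 9.09% without ZT0 replicate 4. For most other settings the share was not counted, so their counts cannot be set against all transcripts. The myelin-minus-precursor difference at ZT16 was -0.0187 after the further quantile normalization in place of -0.05. Without single mice, Pearson r ran from 0.453 to 0.602 for Mog with Mag, from 0.188 to 0.537 for Mog with Aqp4 and from -0.533 to -0.278 for Pdgfra with Cspg4. The cause of these shifts was not tested. With the replicate number as a block, 8 genes passed the 24-h fit. Of 60 pairs with the same number, 14 had correlated deviations over 0.1 (median 0.03, highest 0.58). The 180 pairs with different numbers had a median of -7.07e-05, and 6 of 24 arrays correlated best with one of their own number. These counts cannot show whether arrays of the same number shared a batch, since pairs over 0.1 were not counted for different numbers. Taking the mean over all probe sets of a gene gave identical values, since each gene had 1.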
